A study of Mus musculus with 24 samples.

Results

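Heart was set against 7 other tissues of SENCR-BAC transgenic mice, animals that carry a bacterial artificial chromosome with SENCR, a human long non-coding RNA gene known from blood vessel cells. The heart group was made of the 3 libraries whose titles name that tissue, out of 24 libraries in all, and aorta, brain, kidney, liver, lung, spleen and stomach had 3 libraries each. All 24 sample titles name the same BAC transgene, while all 24 library names carry the prefix SR-KI, which no source used here explains. By the titles, the transgene was shared by heart and by the tissues it was set against, and no animals without it were compared here. No source used here gives the strain, sex or age of the mice, the part of the heart taken, or which libraries came from the same animal. The design text calls the 3 libraries of a tissue biological triplicates, and p-values measure the spread between these libraries.

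The working heart wall is made mostly of cardiomyocytes, striated muscle cells in which thick filaments of myosin pull on thin filaments of actin that are anchored at the Z-discs. Each beat is started by sodium and calcium currents across the cell membrane, which release calcium from the sarcoplasmic reticulum onto troponin C, and the cells are joined end to end at intercalated discs so that force and current pass between them. The ATP for this work comes mainly from mitochondria that burn fatty acids and other fuels, and creatine kinase carries the energy from the mitochondria to the filaments.

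Levels are FPKM, fragment numbers divided by gene length and by library total, as the authors deposited them. Mouse reads had been counted on a human genome build, so the genes carry human symbols, and sequence shared between the species bears on every level; levels of different genes are therefore set side by side only as FPKM and with that limit. The read numbers behind the FPKM values, recovered from their smallest steps, were 356075, 360456 and 350842 in the 3 heart libraries and 193900 to 642307 in the other 21, over 7493 genes. A gene's difference is the mean log2(FPKM + 1) of heart minus the mean of the 7 other tissue means, so a positive value means higher in heart, and changes of genes near 0 are understated. Tests ran over 4260 genes that reached 1 FPKM in 3 or more libraries. A call needed a limma p, Benjamini-Hochberg adjusted over all 4260, below 0.05 and a difference of 1 or more in either direction.

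The 4 genes given as heart markers were each far higher in heart than in every other tissue. They are ACTC1, the cardiac actin of the thin filament; MYH6, the alpha myosin heavy chain, which is the main motor of the adult mouse heart; TNNC1, the troponin C that binds calcium in cardiac and slow muscle; and CKMT2, the mitochondrial creatine kinase of striated muscle. Their mouse promoters, 250 bases before to 50 bases after the RefSeq gene start on GRCm38.p6, are shown because these genes were high together in heart; the deposited table itself holds no coordinates. Capitals mark matches to any of 7 motifs searched on both strands. The letters searched were TATAAA for the TATA box and CATTCC for the TEAD factors. Those for the GATA factors were AGATAA, the estrogen-related receptors were searched as AAGGTCA, and the homeobox factor NKX2-5 was searched as TNAAGTG. The MEF2 site and the CArG box, which serum response factor binds, were the others. Each sequence is written 5′ to 3′ along the gene. Myh6 lies on the minus strand at chr14:54966558-54966857, Actc1 on the minus strand at chr2:114052826-114053125, Tnnc1 on the plus strand at chr14:31208062-31208361, and Ckmt2 on the minus strand at chr13:91876836-91877135.
Myh6: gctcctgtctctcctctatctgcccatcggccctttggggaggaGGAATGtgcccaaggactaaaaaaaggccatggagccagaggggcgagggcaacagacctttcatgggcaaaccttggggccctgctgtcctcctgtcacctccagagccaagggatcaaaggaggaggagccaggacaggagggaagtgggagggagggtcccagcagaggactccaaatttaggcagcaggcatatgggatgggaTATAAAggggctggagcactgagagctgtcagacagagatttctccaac
Actc1: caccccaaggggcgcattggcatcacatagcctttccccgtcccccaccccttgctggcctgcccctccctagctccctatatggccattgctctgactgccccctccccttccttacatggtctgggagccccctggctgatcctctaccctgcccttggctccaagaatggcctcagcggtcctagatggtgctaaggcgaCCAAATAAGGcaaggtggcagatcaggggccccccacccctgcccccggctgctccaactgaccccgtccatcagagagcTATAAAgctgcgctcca
Tnnc1: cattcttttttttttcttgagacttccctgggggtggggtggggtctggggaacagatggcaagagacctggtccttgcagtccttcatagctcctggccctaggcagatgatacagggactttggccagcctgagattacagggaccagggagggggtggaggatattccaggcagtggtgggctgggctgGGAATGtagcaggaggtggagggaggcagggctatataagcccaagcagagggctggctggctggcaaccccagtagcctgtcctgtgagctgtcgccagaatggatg
Ckmt2: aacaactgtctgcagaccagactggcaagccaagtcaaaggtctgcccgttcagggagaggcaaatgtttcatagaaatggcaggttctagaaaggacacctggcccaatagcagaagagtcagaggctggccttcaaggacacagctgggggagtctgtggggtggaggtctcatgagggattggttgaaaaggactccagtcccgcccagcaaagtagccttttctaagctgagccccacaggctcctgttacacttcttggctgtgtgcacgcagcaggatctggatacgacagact
The Myh6 window held TATAAA at bases 1 to 6 from the gene start, and CATTCC on the opposite strand as GGAATG at -206 to -201. The Actc1 window held TATAAA at bases 33 to 38 and a CArG box at -47 to -38. In the Tnnc1 window CATTCC lay on the opposite strand at -58 to -53. Both TATAAA matches lie downstream of the gene start used, so neither is described as a working TATA box. No searched motif was found in the Ckmt2 window. Among the 32851 promoters of that length searched, a RefSeq set with 1 chromosome left out, TATAAA was found in 13.6% and the TEAD motif in 14.7%. The GATA motif was found in 11.2%, the estrogen-related receptor motif in 4.72%, the NKX2-5 motif in 11.5%, the MEF2 site in 3.19% and the CArG box in 1.63%. A match describes these letters only and was not tested for binding.

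ACTC1 stood at 42103, 50310.1 and 52649 FPKM in the 3 heart libraries, against 909 to 1192 FPKM in the 3 lung libraries, the next highest tissue. Every heart library was above every other library by a wide margin, and brain, kidney and spleen were listed at 0 in all 3 libraries. The difference was 12.56 ± 0.38 (SE), and the gap between heart and lung was 5.54 (limma, adjusted p = 3.31e-08).

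MYH6 was at 5955, 4798 and 5630 FPKM in heart, against 42.0, 12.9 and 34.3 FPKM in lung and at most 0.812 FPKM in any library of the other 6 tissues. The difference was 11.56 ± 0.27 (SE, adjusted p = 8.58e-18, limma). Heart and lung did not overlap, and lung in turn lay above the remaining tissues.

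CKMT2 was at 195, 248 and 293 FPKM in heart and was listed at 0 in all 21 other libraries. TNNC1 was at 85.8, 113 and 108 FPKM in heart and was likewise listed at 0 in all 21. Behind these values stood 430 reads of CKMT2 and 75 reads of TNNC1 in the 3 heart libraries, so TNNC1 is the less precise of the pair. A count of 0 allows up to 3 reads, which would be worth at most 9.41 FPKM of CKMT2 and 22.5 FPKM of TNNC1 in any of the other libraries, and this limit covers counting error only. Both genes passed the filter on low values through the heart libraries alone, so that a difference had to follow.

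**Figure D1:**
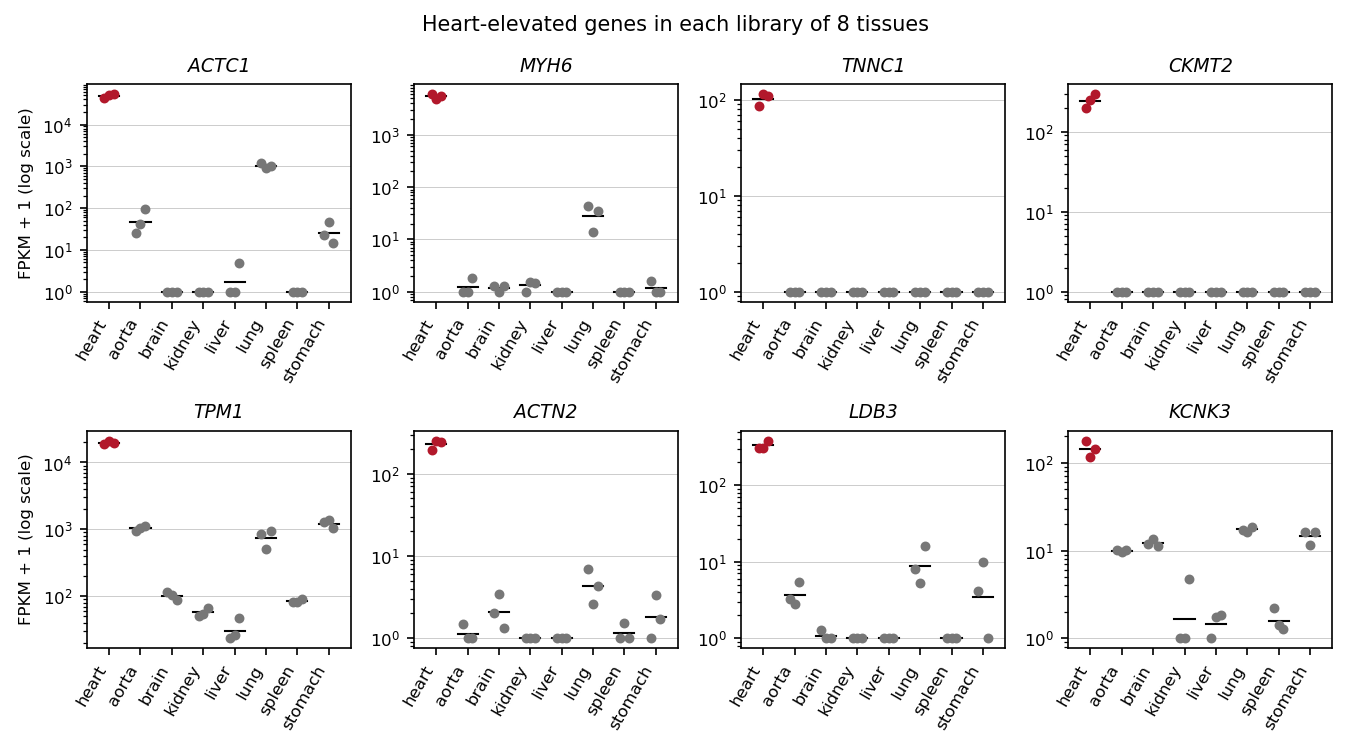
Each panel plots 1 gene, with FPKM + 1 on a log scale against tissue, heart at the left in red; points are the 3 libraries of a tissue and the line is the mean of their log2 values. ACTC1 and MYH6 are highest in heart with lung next, TNNC1 and CKMT2 are listed at 0 outside heart, TPM1 is 19876 FPKM on average in heart against 1224 in stomach, and KCNK3 is at 115 to 177 FPKM in heart.

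Over all genes tested, 273 were called higher in heart (6.41%) and 743 lower (17.4%). The median difference of all genes was -0.44, and beside it stands a measured difference in the read totals, whose part in the median was not tested. ACTC1 and TPM1 together took 17.8%, 20.3% and 19.8% of the reads of the 3 heart libraries, against 0.014 to 0.867% in the other libraries, with a stomach library highest. When libraries were scaled by the median ratio over genes, the heart factors were 0.681 to 0.733 against 0.870 to 1.17 in the other libraries, and the median difference was -0.22. All 273 higher genes were called under that scaling too, in a total of 426 (10%), while 402 of the 743 lower genes kept their call in a total of 404 (9.48%). Quantile normalization gave 426 higher and 358 lower. Genes named below as lower in heart were also called lower under median-ratio scaling, except where the text says that the call ended.

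Against single tissues, heart had the most higher genes relative to liver, 464, and spleen, 455, and the fewest relative to lung, 245. The count of lower genes was largest against brain, 1189, and smallest against liver, 658. Depth differed between these tissues. The liver libraries were the shallowest, at 193900 to 215012 recovered reads, and the brain libraries held 580749 to 642307. The part of depth in these counts was not tested. Correlations of log2(FPKM + 1) across genes were 0.951 to 0.953 between the heart libraries. They were 0.851 to 0.869 between heart and lung, 0.840 to 0.856 between heart and aorta, and 0.701 to 0.727 between heart and brain. These correlations run across genes that share libraries and are descriptions only.

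70 genes, 1.64% of those tested, were called higher in heart than in each of the 7 other tissues. Of these 70, 26 passed the filter on low values through the heart libraries alone, so that their call had to follow, and 44 did not. The genes CKMT2, TNNC1, MYBPC3, TNNI3, SRL, ANKRD1 and MHRT were listed at 0 in all 21 other libraries. In the shallowest of those libraries 3 reads would be worth 2.53 FPKM of SRL, 3.67 FPKM of MYBPC3 and 17.7 FPKM of MHRT, below their heart values. For TNNI3 and ANKRD1 they would be worth up to 18.4 and 8.64 FPKM, above the heart means of 7.78 and 2.10 FPKM, so a difference from every library was not detectable at this depth. For the other 63 the next highest tissue was lung for 19, brain for 13, kidney for 11, aorta for 8, liver for 6, stomach for 4 and spleen for 2. A further 203 genes were called higher than the mean of the 7 tissues without being above each of them. In 107 of these another tissue had the higher mean, most often brain, with 43 genes, and aorta, with 25. 80 of the 4260 genes passed the filter through the heart libraries alone; among the other 4180, 242 were higher (5.79%) and 743 lower (17.8%), with a median difference of -0.46. Among genes named below, TNNT2, CSRP3, NRAP, RYR2, PYGM, PFKM, RBM24, TCF15 and MYL7 also passed through heart alone, and their values are a description.

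**Figure D2:**
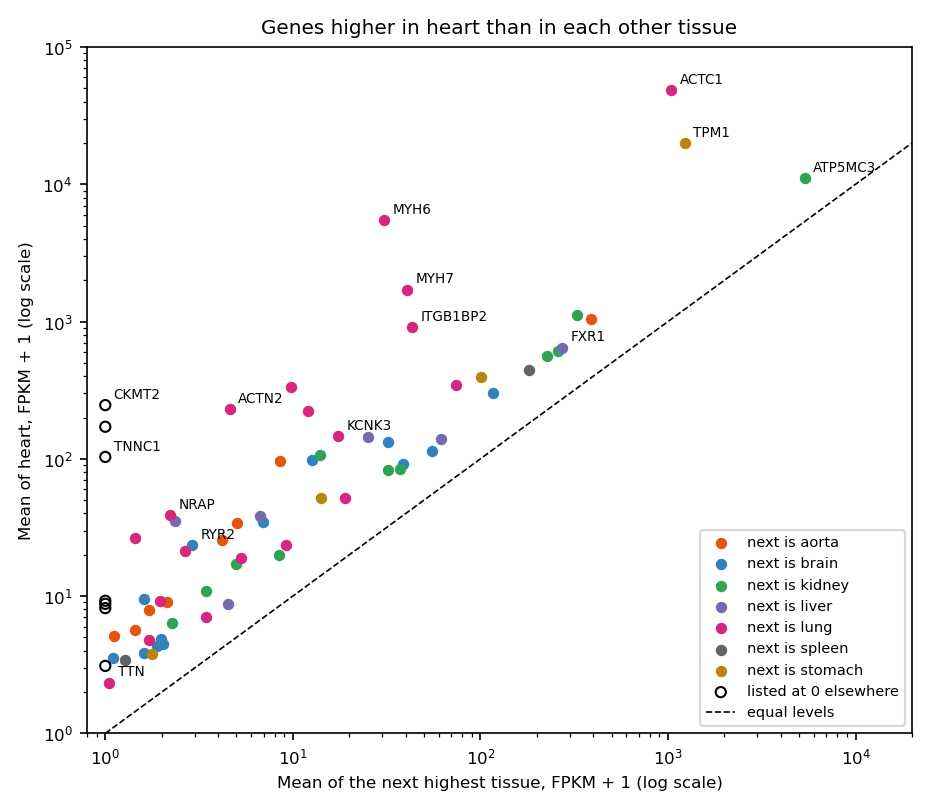
Mean FPKM + 1 of the 3 heart libraries against that of the next highest tissue, both on log scales, for the 70 genes called higher in heart than in each other tissue; colour gives the next tissue, open circles are genes listed at 0 outside heart, and the dashed line marks equal levels. ACTC1 at 48354 FPKM and MYH6 at 5461 FPKM lie far above the line, while ATP5MC3 at 11045 FPKM in heart and 5353 FPKM in kidney lies just above it.

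The thick filament genes were high in heart and carried few reads elsewhere but in lung. Counts of this and the later lists stand beside 6.41% higher and 17.4% lower over all genes tested. Without genes that passed through heart alone, these shares were 5.79% and 17.8%. Of 17 genes on the list, 6 were in the table and 5 were tested, and 4 were higher: MYH6, MYH7, MYBPC3 and UNC45B. MYH7, the beta or slow myosin heavy chain, was at 1913, 1487 and 1726 FPKM in heart, against 44.5, 44.0 and 30.6 FPKM in lung, with a difference of 9.86 ± 0.20 (SE). All 3 heart libraries were far above the lung libraries, and no library of another tissue exceeded 0.798 FPKM.

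MYH7 was at 0.321, 0.310 and 0.307 times the FPKM of MYH6 in the heart libraries, against 1.06, 3.41 and 0.892 times in lung. The 2 myosins have near-identical stretches, so reads could be split between them, and the lung ratios rest on 38 to 115 reads of MYH6 and 89 to 132 of MYH7. MHRT, a non-coding RNA from the same locus, was at 173, 149 and 189 FPKM in heart and was listed at 0 elsewhere. Its locus overlaps that of the myosins and no source used here says whether strand was used in counting, so its reads cannot be told apart from theirs.

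MYBPC3, the myosin-binding protein C of the heart, was at 5.33, 6.58 and 12.8 FPKM in heart and listed at 0 elsewhere. UNC45B, a chaperone of muscle myosin, was at 9.85, 2.92 and 5.50 FPKM in heart, against a mean of 2.46 FPKM in lung. Heart and lung overlapped in single libraries of UNC45B, whose gap to lung was 1.05 (limma, adjusted p = 0.0295). Leaving aside MYBPC3 and MYL7, which passed the filter through heart alone, 3 of 3 thick filament genes were higher, with a median difference of 9.86.

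Thin filament genes moved in both directions, though only 1 of the 2 lower genes stayed lower under median-ratio scaling. Over all genes tested 17.4% were lower, or 9.48% under that scaling. Of 10 in the table, 8 were tested, 6 were higher and 2 lower, and among the 5 that did not pass through heart alone 3 were higher and 2 lower, with a median difference of 2.03. TPM1, the tropomyosin of cardiac muscle, was at 18871, 21041 and 19718 FPKM in heart, against 1279, 1359 and 1035 FPKM in stomach and 959, 1049.6 and 1142 FPKM in aorta. The groups did not overlap, and the gap to stomach was 4.03 (limma, adjusted p = 2.06e-11). TPM3, a tropomyosin of slow muscle and of many other cells, was at 18.3, 16.1 and 15.8 FPKM in heart, against 93.4 to 121 FPKM in lung, and its difference of -1.46 became -0.93 under median-ratio scaling, which ended the call. Tropomyosin genes share long stretches of sequence, and reads may be split between them.

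TNNT2, the cardiac troponin T, was at 7.29, 41.4 and 27.7 FPKM in heart, and a single lung library had 1.31 FPKM. TNNI3, the cardiac troponin I, was at 3.33, 9.87 and 10.1 FPKM in heart from 7 reads in all. Replicate 1 was the lowest of the 3 heart libraries for both. ACTA1, the skeletal muscle actin, was at 5.65, 5.58 and 9.56 FPKM in heart, against 7.27, 8.10 and 51.5 FPKM in lung. It was called higher than the mean of the 7 tissues (2.03 ± 0.51, SE) but not higher than lung, and it shares sequence with ACTC1.

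Genes of the Z-disc, the plate that anchors thin filaments and titin, were mostly higher in heart, beside 6.41% of all genes tested. Of 19 in the table, 15 were tested, with 10 higher and 1 lower; among the 12 that did not pass through heart alone 7 were higher and 1 lower, and their median difference was 1.60. LDB3, which binds alpha-actinin at the Z-disc, was at 309, 307 and 377 FPKM in heart, against 6.97, 4.32 and 14.95 FPKM in lung. ACTN2, the alpha-actinin of cardiac muscle, was at 195, 250.1 and 243 FPKM in heart, against 5.98, 1.59 and 3.28 FPKM in lung. Neither gene overlapped between heart and any other tissue, with gaps to lung of 5.23 for LDB3 and 5.75 for ACTN2.

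CRYAB, the small heat shock protein that protects desmin and titin, was at 247, 347 and 439 FPKM in heart, against 45.6, 105 and 67.8 FPKM in lung. NEXN, an actin-binding protein of the Z-disc, was at 30.4, 32.4 and 36.1 FPKM in heart, against 5.04, 2.00 and 5.05 FPKM in aorta. DES, the muscle intermediate filament desmin, was at 13.8, 16.1 and 24.1 FPKM in heart, against 2.90, 7.18 and 2.78 FPKM in lung. Each of these was higher than in each other tissue, without overlap. CSRP3, the muscle LIM protein, was uneven within heart, at 4.38, 45.4 and 53.3 FPKM, against 4.02 FPKM in a single liver library and a listed 0 in every remaining library.

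The intercalated disc and the dystrophin complex tie the filaments to the membrane and to neighbouring cells. Of 23 genes in the table, 18 were tested, with 8 higher and 1 lower; among the 17 that did not pass through heart alone 7 were higher and 1 lower, with a median difference of 0.28. ITGB1BP2, the muscle-specific integrin partner melusin, was at 770.1, 945 and 1029 FPKM in heart, against 33.9, 26.7 and 66.5 FPKM in lung. NRAP, an actin-anchoring protein of the disc, was at 38.5, 34.1 and 41.6 FPKM in heart, against at most 1.85 FPKM in lung. Heart stood clear of all other libraries for both, with differences of 8.71 for ITGB1BP2 and 5.10 for NRAP. NRAP is the gene of this list that passed the filter through heart alone, so its difference is a description.

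CDH2, the N-cadherin of the disc, was at 19.0, 13.3 and 35.4 FPKM in heart, against 14.6, 14.2 and 20.3 FPKM in liver, so that heart and liver overlapped while the other 6 tissues lay below. DAG1, dystroglycan, was at 127, 95.9 and 119.8 FPKM in heart, against 84.1, 130.4 and 117 FPKM in lung, and was called higher than only 3 of the 7 tissues. ITGB1, the integrin that melusin binds, averaged 55.8 ± 11.0 FPKM in heart and 105 ± 19.5 FPKM in aorta (SD, n = 3 each). CTNNA1, alpha-catenin, was called at 1.04, and the call ended without heart replicate 2 (0.92) or heart replicate 3 (0.99).

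**Figure D3:**
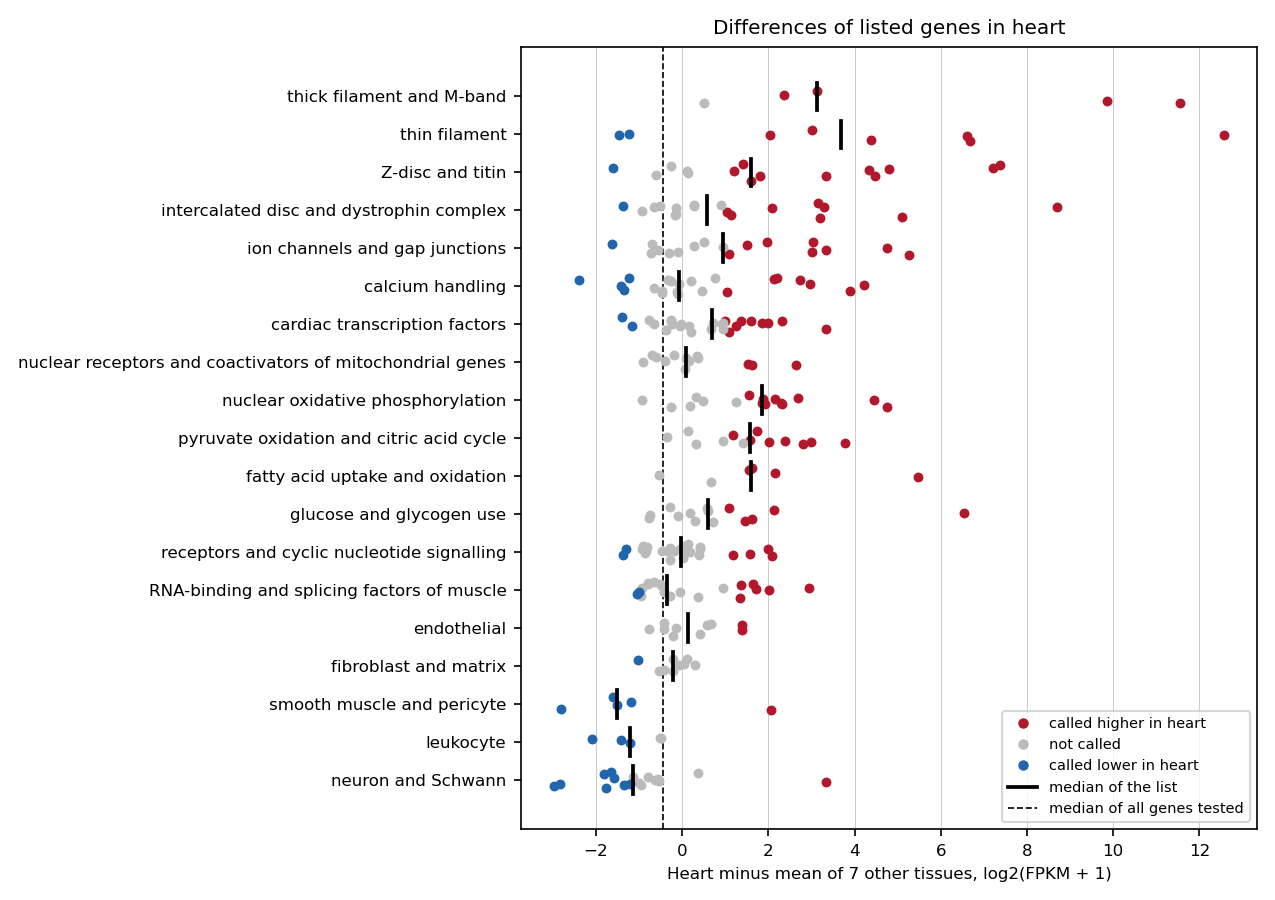
Difference of each tested gene in heart against the mean of the 7 other tissues (x axis, log2(FPKM + 1)) by gene list; red genes were called higher, blue lower and grey neither, the black bar is the list's median and the dashed line is the median of all 4260 genes, -0.44. Filament genes reach 12.56, and the lists of smooth muscle, leukocyte and neuron genes have medians of -1.52, -1.21 and -1.13.

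Calcium handling genes were split, beside 6.41% higher and 17.4% lower over all genes tested. Of 26 in the table, 22 were tested, with 7 higher and 4 lower, and 9 higher and 1 lower under median-ratio scaling; among the 18 that did not pass through heart alone 5 were higher and 4 lower, with a median difference of -0.18. RYR2, the calcium release channel of the cardiac sarcoplasmic reticulum, was at 24.5, 17.3 and 26.0 FPKM in heart, against 0.827, 2.99 and 1.92 FPKM in brain. CACNA1C, the pore of the L-type calcium channel, was at 39.1, 23.2 and 38.3 FPKM in heart, against 3.89, 7.51 and 6.28 FPKM in brain. Both were higher in heart than in each other tissue without overlap, with gaps to brain of 3.07 and 2.33. RYR2 passed the filter through heart alone, so its gap is a description.

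SRL, sarcalumenin of the reticulum, was at 6.88, 9.97 and 4.66 FPKM in heart and listed at 0 elsewhere. CACNB2, an auxiliary subunit of the L-type channel, was at 17.7, 15.1 and 14.2 FPKM in heart, against 8.58, 8.92 and 9.18 FPKM in brain, a gap of 0.75 that did not pass (limma, adjusted p = 0.0912). ATP2A2, the calcium pump SERCA2, was at 19.6, 24.4 and 42.3 FPKM in heart, against 26.1, 34.3 and 28.6 FPKM in brain. It overlapped with brain and was called higher than each of the other 6 tissues.

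Ion channel and gap junction genes gave 8 higher and 1 lower among 17 tested of 27 in the table; among the 16 that did not pass through heart alone 7 were higher and 1 lower, with a median difference of 0.73. KCNK3, a background potassium channel, was at 177, 115 and 144 FPKM in heart, against 16.3, 15.4 and 17.6 FPKM in lung. Heart did not overlap with any other tissue, and the gap to lung was 3.05.

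Several channel genes were shared with brain. KCNJ3, a subunit of the potassium channel opened by acetylcholine, was at 112, 72.1 and 83.6 FPKM in heart, against 79.3, 79.5 and 87.1 FPKM in brain and at most 4.99 FPKM in any other library. FGF13, which binds sodium channels from inside the cell, was at 15.3, 21.6 and 20.5 FPKM in heart, against 36.1, 28.7 and 30.4 FPKM in brain. KCNIP2, the partner of the transient outward channel, was at 8.69, 11.5 and 19.6 FPKM in heart, against 2.96, 10.2 and 8.11 FPKM in brain, and was listed at 0 in all other tissues. Heart and brain overlapped for KCNJ3 and KCNIP2, while brain was higher throughout for FGF13. KCNH2, the channel of the rapid delayed rectifier current, overlapped with aorta and with brain, at 13.6, 15.6 and 6.69 FPKM in heart, against 12.4, 18.5 and 23.0 FPKM in aorta.

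Among transcription factors of the heart, 9 were higher and 2 lower of 26 tested and 30 in the table, and 14 were higher and 2 lower under median-ratio scaling; among the 25 that did not pass through heart alone 8 were higher and 2 lower, with a median difference of 0.67. HAND2, a regulator of the ventricles and of sympathetic neurons, was at 27.3, 26.9 and 30.8 FPKM in heart, against 20.9, 12.98 and 18.7 FPKM in stomach. PROX1, known from lymphatic vessels, liver and heart muscle, was at 23.5, 22.6 and 31.98 FPKM in heart, against 106, 46.5 and 93.6 FPKM in liver. IRX3, which shapes ventricular conduction, was at 12.9, 12.8 and 9.09 FPKM in heart, against 24.6, 13.3 and 35.7 FPKM in kidney. HAND2 and IRX3 were called higher than 5 tissues and PROX1 than 6, and PROX1 was also called lower than liver. Both kidney and lung lay above every heart library for IRX3.

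TEAD1, a partner of YAP that binds the CATTCC motif, averaged 38.4 ± 7.05 FPKM in heart and 66.1 ± 20.4 FPKM in lung (SD, n = 3 each), with a difference of 1.84. SRF, which binds the CArG box, was called at 1.08, and the call ended without heart replicate 1 (0.98). IRX5 was called at 1.35 (limma, adjusted p = 0.0393), and the call ended without heart replicate 2, heart replicate 3 or brain replicate 3, with differences of 1.43, 0.72 and 1.31. ISL1, a factor of cardiac progenitors, was listed at 0 in the 3 heart libraries and averaged 26.1 FPKM in stomach. ANKRD1, a stress-responsive protein of the Z-disc and nucleus, was at 1.57, 1.55 and 3.18 FPKM in heart from 4 reads and was listed at 0 elsewhere.

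The list of nuclear receptors and cofactors linked to mitochondrial genes gave 3 higher and 0 lower of 13 tested and 18 in the table, with a median difference of 0.08. It also holds corepressors and general receptors. PPARGC1A, the coactivator PGC-1alpha, was at 20.8, 31.99 and 20.8 FPKM in heart, against 17.9, 22.5 and 19.1 FPKM in kidney. ESRRA, the estrogen-related receptor alpha, was at 137, 149.7 and 185 FPKM in heart, against 144, 163 and 154 FPKM in kidney. ESRRG, its gamma relative, was at 19.8, 15.6 and 17.4 FPKM in heart, against 95.3, 97.6 and 102 FPKM in stomach. Heart overlapped with kidney for PPARGC1A and with kidney and stomach for ESRRA, and stomach was called above heart for ESRRG.

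Nuclear genes of oxidative phosphorylation were higher in heart in 10 of 16 tested and lower in none, out of 41 in the table, with a median difference of 1.86; the count was 8 to 11 when single libraries were left out. ATP5MC3, the c subunit of the ATP synthase ring, was at 9579, 12671 and 10884 FPKM in heart, against 5189.8, 5359.98 and 5508 FPKM in kidney. NDUFAB1, the mitochondrial acyl carrier protein in complex I, was at 799, 1270.5 and 1261 FPKM in heart, against 308, 323 and 353.7 FPKM in kidney. SLC25A4, the ADP/ATP exchanger of muscle, was at 101, 82.9 and 109 FPKM in heart, against 8.18, 16.2 and 10.7 FPKM in brain. All 3 genes were higher than in each other tissue, with no overlap between libraries.

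ATP5F1B, the catalytic beta subunit of ATP synthase, was at 1977, 2154 and 2272 FPKM in heart, against 1528, 1803 and 1692 FPKM in kidney. The libraries did not overlap, yet the gap of 0.35 did not pass (limma, adjusted p = 0.0873), while 5 of the other tissues were called lower. COX5A, a subunit of cytochrome c oxidase, was uneven, at 38.3, 132 and 131 FPKM in heart against a mean of 59.1 FPKM in stomach. NDUFS1, the largest subunit of complex I, averaged 114 FPKM in heart and 73.0 FPKM in kidney. The mitochondrially encoded genes, read from the mitochondrial genome itself, gave 0 higher and 0 lower of 11 tested (limma), with a median difference of -0.25; summed, they were at 21.2 to 24.4 FPKM in heart, against 1.01 to 782 FPKM in other libraries with an aorta library highest.

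Pyruvate oxidation and citric acid cycle genes gave 8 higher and 0 lower of 13 tested and 23 in the table; among the 11 that did not pass through heart alone 7 were higher, with a median difference of 1.74. OGDH, the oxoglutarate dehydrogenase of the cycle, was at 585, 468 and 622 FPKM in heart, against 227, 191 and 262 FPKM in kidney. IDH2, the mitochondrial NADP-dependent isocitrate dehydrogenase, was at 49.9, 99.5 and 95.9 FPKM in heart, against 22.3, 32.3 and 39.4 FPKM in kidney. OGDH and IDH2 were above each other tissue without overlap. IDH3G, a subunit of the NAD-dependent enzyme, averaged 119 FPKM in heart and 98.8 FPKM in kidney, and PDK2, a kinase that turns pyruvate dehydrogenase off, averaged 32.03 ± 5.13 FPKM in heart and 21.8 ± 12.3 FPKM in kidney (SD, n = 3 each). MDH1, the cytosolic malate dehydrogenase, was called at 2.80, and the call ended without heart replicate 3 (2.25; limma, adjusted p = 0.0891, from 0.000411 to 0.0891 over the alternatives).

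**Figure D4:**
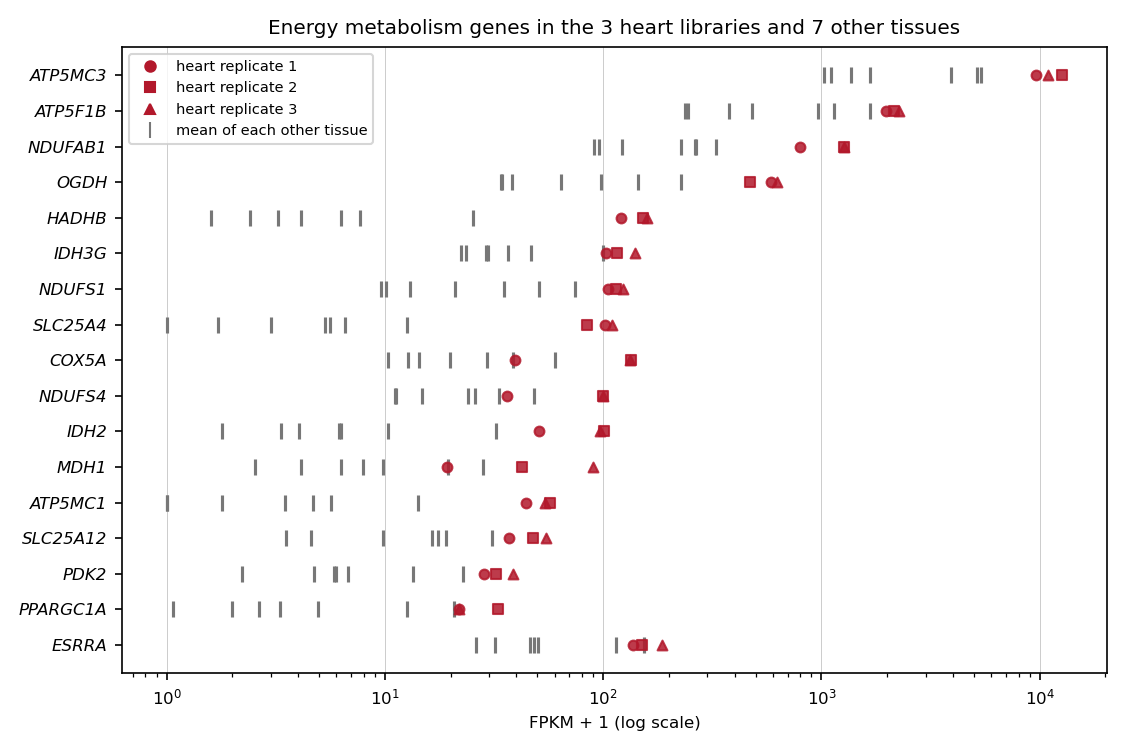
FPKM + 1 on a log scale for genes of mitochondria and fuel use; red symbols are the 3 heart libraries and grey ticks the means of the 7 other tissues. OGDH, HADHB and SLC25A4 in heart lie right of all ticks, whereas ESRRA at 137 to 185 FPKM in heart meets kidney at 154 FPKM, and heart replicate 1 falls among the ticks for COX5A and MDH1.

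Of 6 fatty acid genes tested, out of 12 in the table, 4 were higher and 0 lower, with a median difference of 1.59. HADHB, the beta subunit of the trifunctional protein of beta-oxidation, was at 120.1, 152 and 157 FPKM in heart, against 0, 63.6 and 9.10 FPKM in liver. Heart was above every other library, while the liver libraries were spread widely and the gap of 4.04 had an adjusted p of 0.0133 (limma). DGAT2, which makes triglyceride, was at 151, 144 and 223 FPKM in heart, against a mean of 509 FPKM in liver, and ETFA and ACAT1, which serve electron transfer from beta-oxidation and ketone use, had differences of 2.16 and 1.63.

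Glucose and glycogen genes gave 5 higher and 0 lower of 14 tested and 20 in the table; among the 11 that did not pass through heart alone 3 were higher, with a median difference of 0.30. ENO3, the enolase of striated muscle, was at 181, 181 and 304 FPKM in heart, against 5.14, 2.39 and 25.8 FPKM in lung. Heart and lung did not overlap, with a gap of 4.72 (limma, adjusted p = 0.000164). PYGM, the glycogen phosphorylase of muscle, was at 2.33, 9.21 and 2.36 FPKM in heart and averaged 0.445 FPKM in aorta. PKM, pyruvate kinase, was at 69.5, 81.8 and 96.8 FPKM in heart, against 104, 95.9 and 103 FPKM in stomach. PFKM, the muscle phosphofructokinase, was called at 1.09, and the call ended without heart replicate 2 (0.92) or heart replicate 3 (0.91).

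In the creatine kinase list 2 genes were higher and 2 lower of 5 tested and 8 in the table; among the 4 that did not pass through heart alone 1 was higher and 2 lower, with a median difference of -1.24. Beside CKMT2, the creatine transporter SLC6A8 was higher, with a mean of 11.7 FPKM in heart, and kidney was at 28.9 FPKM. CKMT1B, the mitochondrial creatine kinase of other tissues, was listed at 0 in heart replicates 1 and 2 and at 1.26 FPKM in replicate 3, against 1446, 1131 and 1385 FPKM in stomach and 343, 237 and 253 FPKM in brain. Aorta, liver and spleen were listed at 0 for both mitochondrial kinases. CKMT1B has a near-identical copy, so its own share of these reads is uncertain. GATM, which makes the precursor of creatine, averaged 0.321 FPKM in heart and 90.7 FPKM in kidney, and both lower calls held under median-ratio scaling.

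The list of natriuretic peptides and fetal cardiac genes had 5 members in the table and 4 tested, of which MYH7, ACTA1 and ANKRD1, described above, were higher and MYL7, an atrial myosin light chain, was not, at 0, 0 and 3.05 FPKM in heart. Only MYH7 and ACTA1 did not pass through heart alone, and their median difference was 5.95. Receptors and cyclic nucleotide signalling gave 4 higher and 2 lower of 26 tested and 37 in the table, with a median difference of -0.03, and 4 higher and 0 lower under median-ratio scaling. Over all genes tested the shares were 6.41% higher and 17.4% lower. ADRB1, the main beta-adrenoceptor of heart muscle, was at 14.8, 9.13 and 22.5 FPKM in heart, against 41.4, 36.4 and 44.4 FPKM in lung. ADRA1B, an alpha-adrenoceptor, was at 13.7, 10.1 and 14.8 FPKM in heart, against 45.0, 57.6 and 37.1 FPKM in liver. The receptors were called higher than 5 tissues each, and lung for ADRB1 and liver for ADRA1B lay above every heart library.

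PRKACA, a catalytic subunit of protein kinase A, was at 46.6, 38.0 and 47.3 FPKM in heart, against 33.1, 49.8 and 24.5 FPKM in brain, and AKAP6, which anchors that kinase at the nuclear envelope, was at 4.43, 1.63 and 3.08 FPKM in heart, against a mean of 3.37 FPKM in brain. The lower pair was PPP3CA, a catalytic subunit of calcineurin, with a mean of 46.2 FPKM in heart and 769.5 FPKM in brain, and GNAQ, a G protein subunit. Neither kept its call under median-ratio scaling, and the GNAQ call of -1.36 also ended without heart replicate 3 (-0.94).

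RNA-binding and splicing factors of muscle gave 6 higher and 2 lower of 20 tested and 24 in the table, and 7 higher and 0 lower under median-ratio scaling; among the 19 that did not pass through heart alone 5 were higher and 2 lower, with a median difference of -0.42. Beside these counts stand 6.41% higher and 17.4% lower over all genes tested. FXR1, a muscle-rich relative of the fragile X protein, was at 690.2, 578 and 669 FPKM in heart, against 269, 275 and 274 FPKM in liver. FXR1 was above each other tissue without overlap and had a difference of 1.71 ± 0.08 (SE). QKI, a splicing regulator, was at 322, 272 and 319.6 FPKM in heart, against 312, 269 and 265 FPKM in lung, and RBPMS, an RNA-binding protein of heart and smooth muscle, was at 240.1, 203 and 189.7 FPKM in heart, against 351, 370.1 and 447 FPKM in aorta. Lung overlapped heart for QKI, and aorta was above heart for RBPMS. RBM24, a splicing factor of muscle, was at 5.63, 12.7 and 5.72 FPKM in heart, against at most 2.07 FPKM in aorta. HNRNPU, a general nuclear RNA-binding protein, was lower at -1.05 and lost its call under median-ratio scaling.

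Small heat shock proteins and muscle chaperones gave 7 higher and 2 lower of 12 tested and 15 in the table, with a median difference of 1.14; the count of higher genes was 5 to 7 when single libraries were left out. Beside CRYAB and UNC45B, DNAJA4 was at 62.5, 44.3 and 45.5 FPKM in heart, against 12.98, 12.6 and 28.4 FPKM in lung, with no overlap. DNAJB5, a chaperone partner with known roles in heart muscle, averaged 37.3 FPKM in heart and 73.9 FPKM in brain. BAG3, a co-chaperone of the Z-disc, was called at 1.802, and the call ended without heart replicate 3 (1.39; limma, adjusted p = 0.0802, from 0.00117 to 0.0802 over the alternatives). The lower pair, HSP90AA1 and HSP90AB1, encodes the general cytosolic HSP90, and HSP90AB1 was listed at 0 in heart and averaged 3.36 FPKM in aorta.

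Beyond the listed groups, 33 genes higher in heart than in each other tissue were left, and the following were picked after their values were seen. FRMD5, a membrane-linked protein of the FERM family, was at 118, 145 and 133 FPKM in heart, against a mean of 31.1 FPKM in brain. FGF16, a growth factor known from heart muscle, was at 84.3, 89.9 and 113 FPKM in heart, against a mean of 7.56 FPKM in aorta. VEGFB, a vascular growth factor abundant in oxidative tissue, was at 408, 369 and 407 FPKM in heart, against a mean of 99.7 FPKM in stomach. All 3 were clear of the next tissue in the test of the gap, at 2.06 for FRMD5, 3.81 for FGF16 and 1.99 for VEGFB.

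EGLN1, the oxygen sensor PHD2, was at 103, 110.2 and 102 FPKM in heart, against a mean of 12.9 FPKM in kidney. COQ9, which takes part in coenzyme Q synthesis, was at 572, 533 and 712 FPKM in heart, against 259 FPKM in kidney on average. VLDLR, a receptor for triglyceride-rich lipoprotein, was at 77.7, 72.3 and 98.7 FPKM in heart and at 36.3 FPKM in kidney on average. These 3 genes are among the 11 for which kidney was the next tissue. CFL2, the muscle cofilin, was at 991, 1143 and 1007 FPKM in heart, against 387 FPKM in aorta on average, and APOBEC2, a muscle member of the APOBEC family, was at 8.60, 20.4 and 31.4 FPKM in heart, against 1.67 FPKM in lung on average.

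38 genes, 0.892% of those tested, were called lower in heart than in each of the 7 other tissues, and 13 of these kept that call under median-ratio scaling. SLC6A9, a glycine transporter, was at 1.44, 0.713 and 0.732 FPKM in heart, against 21.2, 13.97 and 22.4 FPKM in lung, the next lowest tissue. ID2, an inhibitor of helix-loop-helix transcription factors, was at 128, 113 and 98.7 FPKM in heart, against 1019, 564 and 543 FPKM in lung. Every heart library lay below every other library for both, with differences of -4.18 for SLC6A9 and -3.71 for ID2 (-3.86 and -3.16 under median-ratio scaling). The 3 heart libraries held 4 reads of SLC6A9 and 157 reads of ID2 in all, so SLC6A9 is the less precise.

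CHD3, a chromatin remodeller of the NuRD complex, was at 14.8, 12.6 and 8.41 FPKM in heart, against 59.6, 65.8 and 46.9 FPKM in stomach and up to 304 FPKM in kidney. ERG28, a scaffold of sterol synthesis, was at 0, 2.39 and 2.46 FPKM in heart, against 9.35, 23.0 and 6.24 FPKM in aorta and 96.9 to 120.3 FPKM in liver. ACLY, which makes acetyl-CoA for lipid synthesis in the cytosol, was at 4.93, 6.09 and 3.13 FPKM in heart, against 22.2, 12.2 and 13.8 FPKM in aorta. None of the 3 overlapped with any other tissue. HDAC8, a histone deacetylase, SRSF9, a splicing factor, YWHAQ, a 14-3-3 adaptor, ALCAM, an adhesion molecule, and TBC1D10A, a Rab regulator, had differences of -2.35, -2.49, -2.31, -3.62 and -3.02, and TBC1D10A was listed at 0 in the 3 heart libraries. Under median-ratio scaling the differences of these 8 genes were between -1.54 for ACLY and -3.49 for ALCAM, and each was called lower than the mean of the 7 tissues. Together the 3 heart libraries held 4 reads of ERG28, 9 of HDAC8, 9 of SRSF9 and 1 of ALCAM. TBC1D10A had 0 reads in heart and 6, 9 and 11 in the 3 libraries of stomach, liver and aorta. As a count of 0 allows up to 3 reads, its difference from every library was not detectable at this depth.

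HSP90AA1 was at 17.8, 27.5 and 50.7 FPKM in heart, against 66.7, 76.1 and 71.1 FPKM in aorta and 178 to 244 FPKM in brain, with a difference of -1.86 (-1.32 under median-ratio scaling). The 3 heart libraries were spread widely yet all lay below the others. Its median-ratio call is the one against the mean of the 7 tissues. Among the largest differences from the mean of the 7 tissues were also genes at or near 0 in heart but low in another tissue too. CKS2, a cell cycle protein, was listed at 0 in the 3 heart libraries, against 518, 514 and 1629 FPKM in spleen and a mean of 2.53 FPKM in brain. HOXA5, a positional gene of the trunk, was at 1.68, 3.32 and 6.83 FPKM in heart, against 675, 755 and 726 FPKM in lung, and HOXC4 was listed at 0 in heart, against 48.1, 37.5 and 48.2 FPKM in aorta. CEBPA, a liver and fat factor, and PTPRF, an epithelial receptor phosphatase, had differences of -3.77 and -3.53. Under median-ratio scaling the differences were -6.06 for CKS2, -3.35 for HOXA5, -3.48 for HOXC4, -3.46 for CEBPA and -3.24 for PTPRF, all called.

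**Figure D5:**
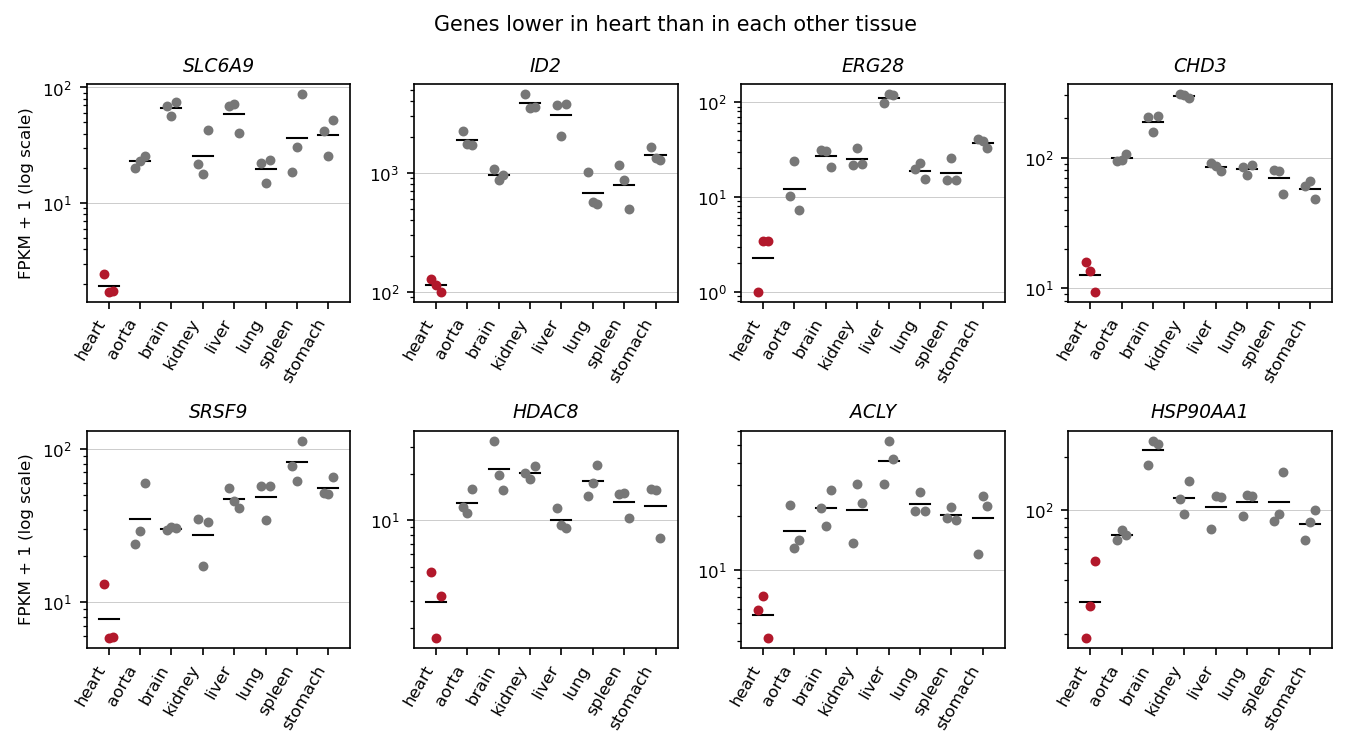
FPKM + 1 on a log scale by tissue for genes called lower in heart than in each other tissue; points are libraries, heart at the left in red, and lines are means of the log2 values. ID2 is at 98.7 to 128 FPKM in heart and at 709 FPKM on average in lung, the next lowest tissue, and HSP90AA1 is at 17.8 to 50.7 FPKM in heart, against 66.7 to 76.1 FPKM in aorta. Of the 38 genes called lower than each other tissue, 13 kept that call under median-ratio scaling.

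Marker lists of cells other than cardiomyocytes differed among themselves: 4 of 5 smooth muscle, 3 of 5 leukocyte and 8 of 17 neuron genes were called lower in heart, against 0 of 10 endothelial and 1 of 9 fibroblast genes and 17.4% of all genes tested. In bulk RNA fewer cells of a type and less RNA per cell cannot be told apart. The mean of the 7 tissues also holds aorta, spleen and brain. A library of these had the highest smooth muscle, leukocyte and neuron sum, respectively. For each of these 3 lists the lowest other library summed below heart. Their lower calls describe heart against that mean and do not place heart below most tissues. Smooth muscle and pericyte genes gave 1 higher and 4 lower of 5 tested and 9 in the table, with a median difference of -1.52, and the same counts under median-ratio scaling; their summed level was 35.3 to 56.1 FPKM in heart, against 3.94 to 327 FPKM in the other libraries. ACTA2 and ACTG2, the smooth muscle actins, were listed at 0 in heart, and MYH11, the smooth muscle myosin, was at 4.04, 2.40 and 6.15 FPKM in heart, against 38.8, 34.8 and 46.5 FPKM in aorta. SMTN, smoothelin, went the other way, at 52.1, 32.7 and 35.1 FPKM in heart, against 94.4, 83.4 and 135 FPKM in aorta. SMTN was called higher in heart than in 5 tissues and lower than in aorta.

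Endothelial genes gave 2 higher and 0 lower of 10 tested and 14 in the table, 4 higher under median-ratio scaling, and 0 to 2 higher when single libraries were left out; among the 9 that did not pass through heart alone 1 was higher, with a median difference of -0.13. NRP1, a coreceptor for VEGF, was called at 1.39 and the call ended without heart replicate 1 (1.07). TCF15, a factor of heart endothelium, was at 2.79, 5.52 and 0 FPKM in heart, and its call of 1.38 ended without heart replicate 1 (1.19) or 2 (0.80). The summed level of the list was 141 to 339 FPKM in heart, against 23.3 to 1196 FPKM elsewhere with a spleen library highest, and CLDN5, RAMP2 and AQP1 were listed at 0 in heart. Endocardial and valve genes gave 0 higher and 1 lower of 4 tested and 5 in the table (median -0.64). The lower gene, CDH11, averaged 7.07 FPKM in heart and 109 FPKM in lung and was not called under median-ratio scaling.

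Fibroblast and matrix genes gave 0 higher and 1 lower of 9 tested and 13 in the table, with a median difference of -0.21, and 0 lower under median-ratio scaling; the summed level was 145 to 219 FPKM in heart, against 21.5 to 1372 FPKM elsewhere. SPARC, a matrix glycoprotein, was at 108, 137 and 168 FPKM in heart, against a mean of 648 FPKM in aorta, and COL1A1, a chain of type I collagen, was at 11.4, 13.6 and 15.4 FPKM in heart, against 182 FPKM in aorta on average. Neither was called against the mean of the 7 tissues. The lower gene, FN1 (fibronectin), averaged 1.64 FPKM in heart and 29.0 FPKM in aorta; its difference of -1.03 was -0.67 and not called under median-ratio scaling, and the call also ended without heart replicate 2 (-0.94) or 3 (-0.95), aorta 3 (-0.98), kidney 3 (-0.99), liver 3 (-0.98), lung 2 (-0.96) or stomach 2 (-0.99). Leukocyte genes gave 0 higher and 3 lower of 5 tested and 10 in the table (median -1.21): IKZF1, PAX5 and LCP1 were listed at 0 in heart, and SPI1, a myeloid factor, was at 18.2, 9.87 and 13.8 FPKM. The leukocyte sum was 9.87 to 18.2 FPKM in heart, against 2.04 to 378 FPKM elsewhere.

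Neuron and Schwann cell genes gave 1 higher and 8 lower of 17 tested and 17 in the table, with a median difference of -1.13 and the same counts under median-ratio scaling. The higher member was HAND2, described above. SNAP25, GRIA2, SYT1 and NEUROD6, genes of synapses and of forebrain neurons, were listed at 0 in the 3 heart libraries. Over 41 alternatives, the difference of KIF5A ran from -1.95 to -0.07 and that of MBP from -2.13 to -0.38. Both are lower genes of this list, and each call ended in 3 alternatives, against 2 for SNAP25, SYT1 and CNIH2. The largest adjusted p over the alternatives was 0.925 for KIF5A and 0.379 for MBP (limma). With brain left out of the 7 tissues, 14 of the 132 named genes lost their call. The summed level was 44.8 to 67.0 FPKM in heart, against 7.25 to 22133 FPKM elsewhere with a brain library highest. Epicardial genes gave 0 calls of 2 tested and 3 in the table (median -0.21), adipocyte genes 0 calls of 3 tested (median -0.30, or -0.60 for the 2 that did not pass through heart alone), and none of the erythroid list, with 1 gene in the table, was tested.

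Genes of other organs were at or near 0 in heart. The organs of these lists are part of the mean of the 7 tissues. Lower calls here rest on those organs and are a description. Of 8 hepatocyte genes tested, out of 12 in the table, 0 were higher and 4 lower (median -0.77), and 3 were lower under median-ratio scaling. Among the 7 that did not pass through heart alone the median was -1.01. The list summed to 0 to 4.99 FPKM in heart against 0 to 2475 FPKM elsewhere. Kidney tubule genes were listed at 0 in heart, with 1 lower of 4 tested and 5 in the table (median -0.73), and so were those of lung epithelium, with 2 lower of 2 tested and 3 in the table (median -1.90). NKX2-1, the lung and thyroid factor, averaged 216 FPKM in lung and KCNJ1, a channel of the kidney tubule, 1497 FPKM in kidney. The NKX2-1 difference ran from -2.01 to -0.13 over 41 alternatives. Its call ended in 2 of them, and that of KCNJ1 in 0. Immediate early genes, which can rise while tissue is taken, gave 0 higher and 1 lower of 18 tested and 24 in the table (median -0.33), with a sum of 48.6 to 163 FPKM in heart against 43.7 to 722 FPKM elsewhere. The lower gene, EGR3, was called at -1.40, and the call ended under median-ratio scaling and without heart replicate 1 (-1.12), 2 (-1.43) or 3 (-1.65). Proliferation genes gave 0 higher and 1 lower of 2 tested and 8 in the table (median -0.94): TOP2A was listed at 0 in heart, and its call of -1.32 ended without heart replicate 1, 2 or 3 (limma, adjusted p = 0.0665, 0.0675 and 0.0676, from 0.0073 to 0.0676 over the alternatives).

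Of the 13 fast skeletal muscle genes in the table, 6 were tested, with 1 higher in heart, MYH2, and 0 lower (median -0.57). MYH2, a fast myosin heavy chain, was at 17.9, 31.3 and 33.1 FPKM in heart, against 21.6, 12.5 and 32.2 FPKM in lung, so that heart and lung overlapped. MYH1, MYH3, MYH4 and ATP2A1, other members of that list, were listed at 0 in heart and averaged 4.91, 9.90, 21.4 and 13.8 FPKM in lung. The summed list was 19.4 to 33.1 FPKM in heart, against 0 to 114 FPKM elsewhere with lung replicate 3 highest. Lung was the next tissue for 19 of the 63 heart-elevated genes listed above 0 elsewhere, among them MYH6, MYH7, ACTC1, ACTN2, LDB3, ITGB1BP2, NRAP and KCNK3; which cells of the lung samples held these transcripts was not tested. MYH genes share sequence, so part of the MYH2 reads may belong to another myosin.

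The 3 heart libraries differed little from each other for abundant genes. The median coefficient of variation was 10.1% over 306 genes at 100 FPKM or more in heart on average, and 17.6% over 1224 genes with at least 10 FPKM. Of 182 higher genes with a heart mean of at least 10 FPKM, 145 had their 3 heart libraries within 2-fold of each other, and 9 were over 3-fold apart or had a library at 0. Heart replicate 1 was the lowest of the 3 for 100 of the 273 higher genes, replicate 2 for 117 and replicate 3 for 56. Over all genes tested the order was the same, with replicate 1 lowest for 909 genes, replicate 2 for 1214 and replicate 3 for 795. NDUFS4, an accessory subunit of complex I, shows the pattern of COX5A, CSRP3 and TNNT2, at 35.3, 98.7 and 98.4 FPKM. MYH6 differed from these, with replicate 1 highest at 5955 FPKM. Counts of the 3 heart libraries differed from one another by more than counting noise, with chi-square values of 3.31 to 4.43 per degree of freedom. This does not tell libraries of separate animals from separate libraries of 1 animal.

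SENCR, the transgene's own RNA, was at 32.5, 59.8 and 65.9 FPKM in heart, against 78.9, 31.2 and 102 FPKM in kidney, the tissue with the highest mean, and 10.6, 1.20 and 5.19 FPKM in brain. Heart overlapped with aorta, kidney, lung and spleen, and lay above every brain library. Its difference was 1.22 ± 0.45 (SE; limma, adjusted p = 0.0330), and the call ended without heart replicate 2 (adjusted p = 0.13) or heart replicate 3 (0.151), with a range of 0.00463 to 0.151 over the alternatives. FLI1, the gene SENCR is antisense to, was at 309.8, 115 and 228 FPKM in heart, against 1095, 484 and 509 FPKM in spleen, with a difference of 0.56 (limma, adjusted p = 0.282), which was 1.12 and called under median-ratio scaling. Reads of the mouse gene and of any human copy cannot be told apart in this table, nor sense from antisense where the strand setting is unknown. Of the 5 genes of the locus list in the table, 4 were tested, with 1 higher (SENCR) and 1 lower (KCNJ1), and 3 higher under median-ratio scaling; the median difference was 0.62.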

How the data were processed

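RNA was sequenced from 8 tissues of SENCR-BAC mice, 3 libraries each. Reads were handled with fastp, HISAT2 and HTSeq on the human build GRCh38.p13, as named in the submitters' processing notes; no source used here gives versions, annotation or strand setting. The authors deposited 1 table of FPKM for 7493 genes, whose symbols matched a mouse symbol in 91.4% when case was ignored. Tissue and replicate number were taken from titles. Read numbers were recovered from the FPKM steps for all 7493 genes (relative tolerance 1e-06) and served for depth, for precision and for an alternative fit. Tests used limma 3.58.1 in R 4.3.3 on log2(FPKM + 1), with 8 tissue means and a mean-variance trend, over the 4260 genes that reached 1 FPKM in 3 or more libraries; p-values were adjusted by Benjamini-Hochberg within each contrast. The method was tested on simulated data. Genes higher or lower than each of 7 tissues had to pass in all 7 contrasts.

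Named genes were the 4 markers, the 12 heart-elevated genes with the largest gap, the 10 largest differences in each direction (lower ones only if also called under median-ratio scaling), up to 10 heart-lowest genes, up to 6 called members of a list by heart level, SENCR and FLI1; further list members were named after their values were seen. The members and lists were chosen with earlier results of these data known. Alternatives were pseudocounts of 0.1 and 5, no filter or 5 FPKM, TPM (FPKM rescaled to a common total), median-ratio and quantile scaling, no minimum difference, a replicate block, other variance settings, limma voom on recovered reads, brain, lung or aorta left out of the 7, and each library left out. Promoters came from RefSeq on GRCm38.p6 and were matched by symbol. Python 3.11.15, numpy 2.4.6, pandas 2.3.3 and matplotlib 3.10.9 were used. Some results are not reported here.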

Additional observations from a re-analysis of the deposited data

How the results depend on the processing

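The 273 higher genes became 153 with a pseudocount of 5, 426 under median-ratio scaling, 426 under quantile normalization and 459 with median-ratio scaling and brain left out of the 7 tissues, a pairing chosen after seeing the data. The 743 lower genes became 303 with a pseudocount of 5, 404 under median-ratio scaling, 358 under quantile normalization, 330.0 with median-ratio scaling and brain left out, and 1550.0 with no minimum difference. The 38 heart-lowest genes became 65 with a pseudocount of 0.1, 16 with a pseudocount of 5, 13 under median-ratio scaling, 12 under quantile normalization, 13 with median-ratio scaling and brain left out, and 116 with no minimum difference. The cause of these moves was not tested. The 70 heart-elevated genes stayed within 1.5 times under every alternative run. With each library left out in turn, the counts ran from 250 to 276 higher, 649 to 746 lower, 64 to 71 heart-elevated and 32 to 46 heart-lowest, and 210 higher, 457 lower, 53 heart-elevated and 17 heart-lowest genes kept their call throughout. Without aorta replicates 1 and 3, left out after seeing the data, they were 266, 721, 65 and 27. limma voom on recovered reads gave 316, 996, 68 and 48.

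With the replicate number as a block the counts were 275 higher, 742 lower, 68 heart-elevated and 39 heart-lowest. Deviations of same-numbered libraries from their tissue means had a median correlation of 0.0241 over 84 tissue pairs (-0.0589 to 0.128), against -0.0173 for other numbers. Such deviations sum to 0 within a tissue, so these values are tied and their contrast cannot decide on pairing. The numbers were not taken to pair libraries in the main test, and whether same-numbered libraries share an animal is not known. Of 132 named genes, 84 kept the same call under every alternative and none changed direction. Depth limits genes with few reads, such as TNNI3, ANKRD1 and TBC1D10A, and the difference of a gene listed at 0 depends on the pseudocount.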
